A study of Orbicella faveolata with 48 samples.

Results

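Of 87440 assembled RNA features of the coral Orbicella faveolata, 76 were higher in heated than in control inshore fragments after 31 days and about level between the same arms after 5 days. They were chosen on inshore contrasts alone, from the 26353 features that averaged 2 CPM or more over 48 libraries. CPM is a count scaled by the total count of its library, L was taken as log2(CPM + 1), and D was the median L of a heated group minus the median L of its control group. A feature was kept where the inshore D was 0.8 or more at 31 days and within 0.2 of 0 at 5 days. Beyond that mean over all libraries, offshore libraries took no part in the choice, so the offshore values are the independent data here.

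The libraries came from coral fragments collected in the Florida Keys, on reefs near the shore (inshore) and farther out (offshore). The temperature of heated fragments was 32 °C in the 31-day exposure and 33 °C in the 5-day one, against 30 °C in all controls, and heated fragments had been brought to their temperature gradually after acclimation, per the labels. Temperature and duration therefore changed together between both times and cannot be told apart. At each time there were 9 inshore heated, 9 inshore control, 3 offshore heated and 3 offshore control libraries. Each library had a tag, for example A4, which the labels do not explain, and a genotype label, In1, In2, In3 or In4 inshore and O1, O2 or O5 offshore. A tag's genotype label changed between times in some cases (BLY5 was In4 at 31 days and In2 at 5 days, and C2 was O1 at 31 days and O2 at 5 days), so no tag was followed across times. The 3 libraries of each offshore group had different genotype labels, while several inshore libraries of a group could share a label. Nothing in the labels says that libraries of the same genotype came from separate colonies. The p-values come from a spread estimated over both habitats, and it then measures in part the spread between fragments.

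Reef-building corals house photosynthetic algae in their cells and can lose them when the water warms, which is known as bleaching. Heated corals are known to raise chaperones and oxidative stress genes within hours, while longer exposure is known to bring changes in metabolism, immunity and the symbiosis with the algae. The deposited tables give features by identifier only and pair none with a gene name, so no function is given to any member, and the tissue was not checked against named marker genes. The identifiers follow the pattern of an assembler that numbers clusters, components, genes and isoforms, and each of the 87440 coral features stands for a different gene number of that pattern. CPM values are not per length and are compared here only within a feature.

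Coral counts per library ran from 4726663 to 6686881. The share of all counts that fell in the second table, which its name marks as symbiont, moved with heat in every comparison below. Its median was 8.01% (2.67% to 12.5%) in inshore heated and 14.6% (12.2% to 19.5%) in inshore control libraries of 31 days, and 10.97% (6.94% to 16.5%) in inshore heated and 16.3% (14.2% to 21.3%) in inshore control libraries of 5 days. Offshore it was 1.12%, 2.45% and 4.48% in heated and 11.2%, 14.6% and 16.0% in control libraries of 31 days, and 1.0%, 1.09% and 8.47% in heated and 14.1%, 18.5% and 18.9% in control libraries of 5 days. The part of algal loss in the members' changes was not tested, and in these bulk samples fewer cells of a type and less RNA per cell cannot be told apart. In 3 libraries of 31 days, B2 heated, B3 heated and C4 control, 106 features stood at 5 CPM or more and at least 4 times above every other library. Several results that rest on those libraries are given with and without them. Others, such as the offshore counts of 31 days by D, overlap and tag pairs, are given only with them.

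The values that chose the members are a description. The 76 had an inshore D at 31 days between 0.80 and 2.61, with a median of 0.96, and an inshore D at 5 days between -0.20 and 0.20, with a median of 0.02. At 31 days 337 features reached a D of 0.8, and at 5 days 14149 lay within 0.2 of 0. Just inside the first threshold were OFAVBQ_DN201773_c3_g4_i1 (D 0.8001) and OFAVBQ_DN205505_c9_g1_i5 (0.806), and just outside it OFAVBQ_DN221453_c0_g1_i3 (0.799) and OFAVBQ_DN203750_c1_g1_i1 (0.798). On the 5-day threshold OFAVBQ_DN225342_c7_g3_i1 and OFAVBQ_DN201717_c3_g1_i4 lay inside, both at a D of -0.196, and OFAVBQ_DN205650_c3_g1_i16 (-0.201) and OFAVBQ_DN214060_c0_g5_i1 (-0.210) lay outside. On the CPM threshold OFAVBQ_DN197736_c0_g1_i2 (2.11 CPM) and OFAVBQ_DN209348_c0_g2_i3 (2.14) lay inside, and OFAVBQ_DN217804_c2_g1_i7 (1.92) and OFAVBQ_DN195709_c3_g4_i1 (1.87) outside.

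The list depends on the summary of a group: with means in place of medians of L, 139 features met the rule, and 16 of the 76 were among them. With 1 inshore library left out in turn, 44 to 66 of the 76 still met it.

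Many members had few counts. Their mean CPM ran from 2.11 to 372 with a median of 5.12, against a median of 11 over the 26353 features. Under 5 CPM lay 38 of the 76, against 28.9% of the 26353, and 9 of the 76 had 50 CPM or more. Only 27 of the 76 (35.5%) were at 0.5 CPM or more in all 48 libraries, against 77.5% of the 26353, and 6 members were at that level in fewer than 24 libraries, against 1.39%. A count of 0 occurred in at least 1 library for 27 members. The deposited values are estimated counts, and 42.6% of the members' values were not whole (more than 1e-06 from a whole number), close to the 44.2% over the 26353 features. Estimated counts can split reads between alike sequences, so a feature is an assembled sequence and not a gene. Whole values throughout were found for 12 members.

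**Figure D1:**
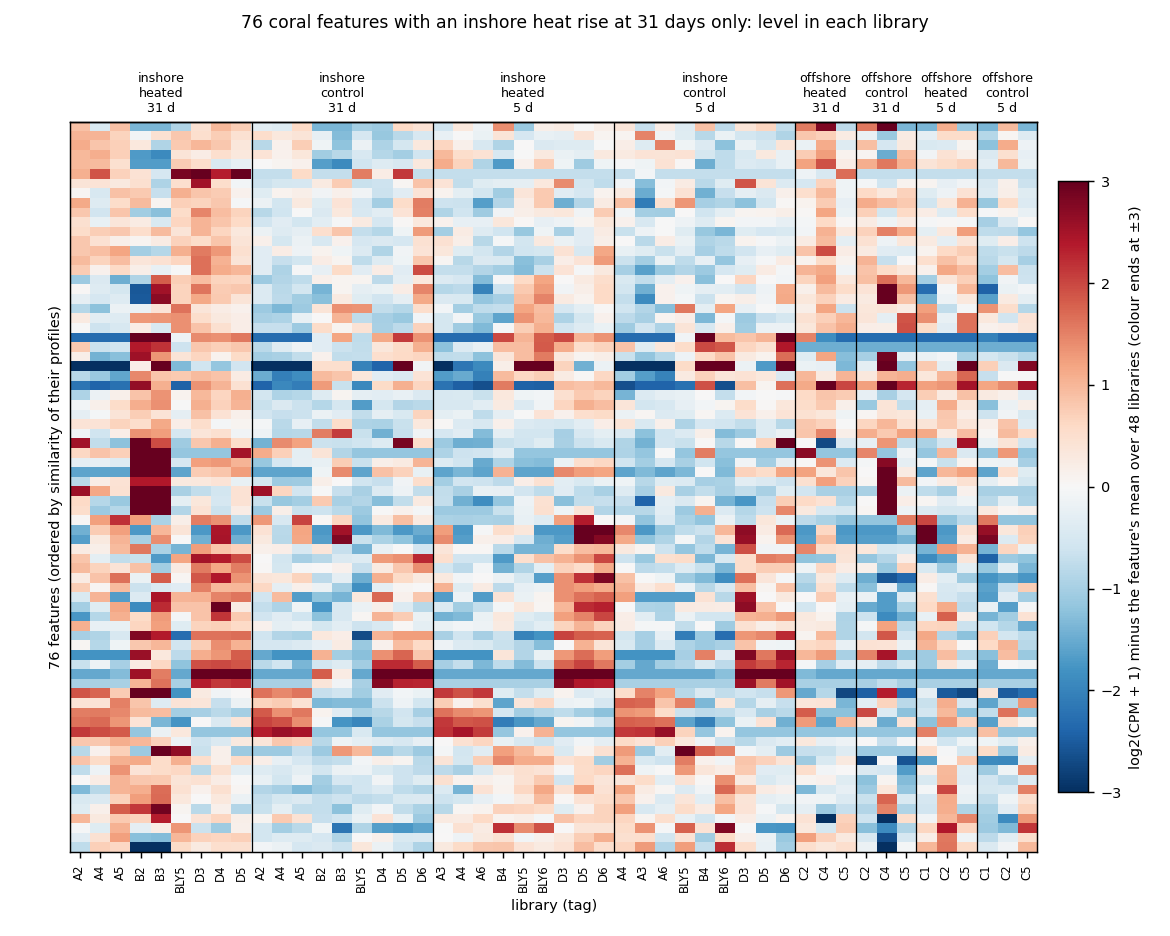
Level of each of the 76 features (rows) in each of the 48 libraries (columns, by tag), as log2(CPM + 1) minus the feature's mean over the 48 libraries, with colour ending at ±3. The inshore heated libraries of 31 days carry most of the red, while blocks of rows are high in B2 and B3 heated and C4 control of 31 days, in libraries of genotype In1 (tags A2 to A6) or in libraries of genotype In3 (tags D3 to D6) in both arms.

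Inshore, the typical member stood apart in the heated libraries of 31 days. The median L over the 76 members in a library had a group median of 2.85 (2.15 to 3.05) in heated and 1.88 (1.59 to 2.55) in control libraries of 31 days. At 5 days it was 2.04 (1.43 to 2.65) in heated and 1.96 (1.27 to 2.38) in control libraries. Without B2 and B3 the heated median of 31 days was 2.48. The gap to all controls, B2 and B3 control among them, was 0.60 in place of 0.97. The groups overlapped at both times, since the control library D6 of 31 days reached the level of the heated ones. The rule fixes the difference between the arms in their change between times, so the change of each arm is a description. The median member was higher at 31 than at 5 days by 0.72 in L in heated fragments, and in control fragments it was lower at 31 days by 0.21. In 26 of the 76 the control arm differed more between times than the heated arm did.

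**Figure D2:**
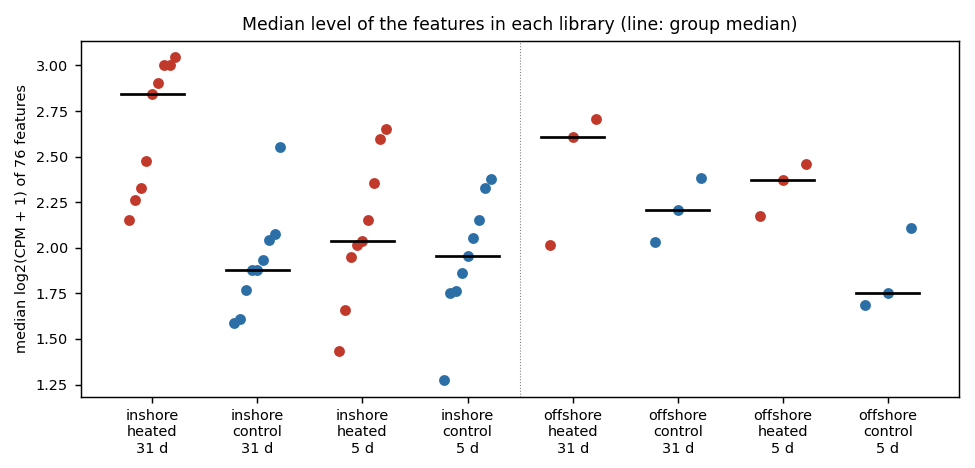
Median log2(CPM + 1) of the 76 features in each library (points) with the median of each group (lines), heated in red and control in blue. Inshore heated libraries of 31 days have a group median of 2.85 against 1.88 in their controls, and offshore heated libraries lie above the control median at both times in 5 of 6 cases.

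The inshore gap at 31 days differed between genotypes. The median change of the members, heated minus control in mean L, was 0.45 in In1, 0.92 in In2, 0.63 in In3 and 0.74 in In4, the last with 1 library in each arm. The In2 libraries of 31 days were B2 and B3 alone, so the values of In2 rest on the heated libraries that stood apart. A change of 0.8 or more was shown by 16 members in In1, 43 in In2, 27 in In3 and 36 in In4. The means of In1 and In3 rest on more libraries than those of In2 and In4, so the counts are not on equal terms. By single tag, 22, 19 and 30 members reached 0.8 in A2, A4 and A5 of In1, against 4.33%, 4.53% and 5.16% of the 26353 features. The difference between genotypes was not tested. All 4 genotypes were higher in heated fragments for 40 of the 76 members, 3 of the 4 for 23, 2 for 10 and 1 for 3. The largest of the 4 changes fell to In2 for 35 members, to In4 for 25, to In3 for 15 and to In1 for 1. By tag, heated minus control of the same tag gave medians of 0.28, 0.28 and 0.37 in A2, A4 and A5, 0.85 and 1.14 in B2 and B3, 0.74 in BLY5, and 1.0 and 0.57 in D4 and D5. In B2 and B3 the median over all 26353 features was itself shifted, by -0.39 and -0.57, on this scale of column totals. In the offshore tag C4 of 31 days it was shifted by 0.70, against 0.14 over the 76 members.

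**Figure D3:**
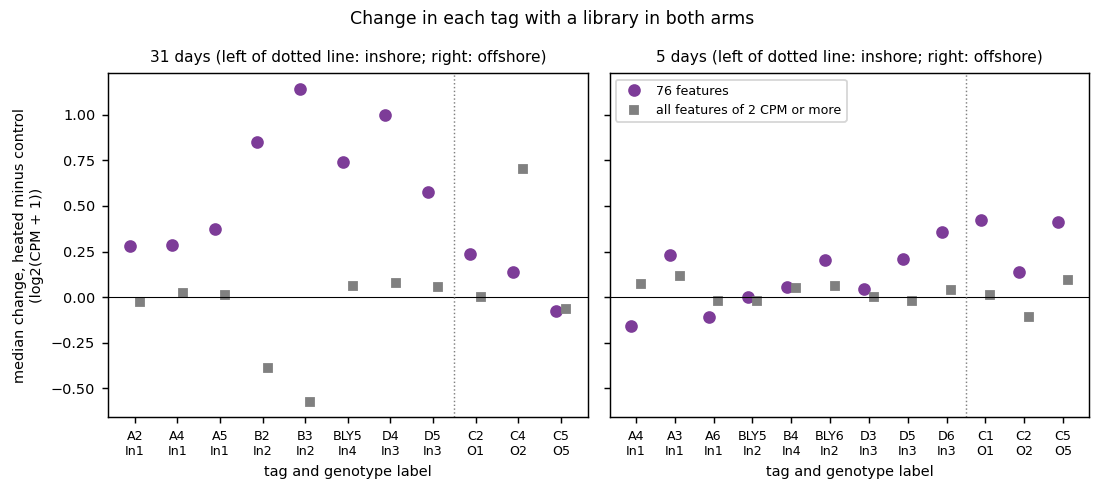
Median heated minus control change in log2(CPM + 1) for each tag with a library in both arms, over the 76 features (purple circles) and over the 26353 features of 2 CPM or more (grey squares), at 31 days (left panel) and 5 days (right panel). At 31 days the 8 inshore tags lie between 0.28 and 1.14 for the 76 features and the 3 offshore tags between -0.08 and 0.24, where the 26353 features lie at 0.70 in C4, and at 5 days the offshore tags lie between 0.14 and 0.42.

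A model with replicate error called fewer members inshore at 31 days than the rule on medians. By edgeR's quasi-likelihood test with genotype as a term, 15 of 76 were higher in heated fragments at an adjusted p under 0.05, where 1.11% of the 35219 tested features were; the rule used this contrast, so the count is a description. With the tag as a replicate block 5 were called (0.219% of all tested features as higher), with no genotype term 6 (0.463%) and with DESeq2 29 (2.98%). Without B2 heated, B3 heated and the C4 control, edgeR called 16 of 76, where 440 of the 36878 tested features were higher. Without the libraries of In3, edgeR called 0 of 75 (0% of all), with 44 at an unadjusted p under 0.05. In the full fit 47 of 76 were under an unadjusted p of 0.05, where 19.4% of all features were. Every heated library lay above every control library for 2 of the 76 (0.175% of the 26353 features).

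OFAVBQ_DN222217_c4_g1_i1 was 1 of these 2. Its levels were 95.1 to 265 CPM (median 165) in the 9 inshore heated libraries of 31 days, against 31.2 to 74.5 CPM (median 63.9) in the 9 controls. At 5 days they were 72.8 to 213 CPM (median 94.6) in heated and 69.0 to 149 CPM (median 103) in control libraries. The gap of 31 days thus held a lower control and a higher heated level than those of 5 days. The other feature, OFAVBQ_DN218376_c0_g1_i3, is named here after its values were seen. It had 3.73 to 8.70 CPM (median 5.27) in inshore heated and 1.36 to 3.47 CPM (median 2.36) in inshore control libraries of 31 days, and its heated and control medians of 5 days, 5.17 and 4.81 CPM, were close to the heated one of 31 days. In this feature the control level was the one that differed between times.

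The largest inshore D, 2.61, belonged to OFAVBQ_DN176595_c0_g2_i1, a feature that was nearly absent at 5 days. At 5 days 1 of 24 libraries had any count of it, the inshore control A3 at 0.558 CPM. At 31 days all 9 inshore heated libraries had counts, from 0.165 CPM in B3 to 34.8 CPM in D5 with a median of 5.11, as did 4 of 9 inshore controls, where the highest was D5 at 6.23 CPM. Offshore at 31 days the heated libraries C2, C4 and C5 had 0.475, 0.175 and 4.30 CPM and the 3 controls had none. All 3 offshore heated libraries were thus above the controls, at 31 counts against 0, which is at least 8.88-fold higher when 3 counts over the group stand for 0. The counts are few, and edgeR gave an adjusted p of 0.445. All its values were whole numbers of reads.

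Other large values of D came with single libraries or single genotypes. OFAVBQ_DN224017_c3_g2_i5 (D 1.72) had 1917 and 1073 CPM in the inshore heated libraries B2 and B3 of 31 days, and a median of 11.8 in the 9 heated against 2.86 CPM in the 9 control libraries (control range 0 to 20.2). It was at 0 in every inshore In1 library of both times and reached 823 and 365 CPM in the inshore controls B4 and D6 of 5 days. Without B2 and B3 heated its D at 31 days was 0.20, from heated BLY5 (In4) at 3.45 CPM against the control B2 (In2) at 2.86 CPM. OFAVBQ_DN211440_c0_g2_i2 (D 1.61) had 677 and 1916 CPM in B2 and B3 heated and 0 to 11.5 CPM in the other 7 heated libraries, against 0 to 3.81 CPM in the controls. It kept a D of 1.51 without B2 and B3 heated, from heated A2 (In1) at 2.44 CPM against the control B3 (In2) at 0.211 CPM. Within In1 the arms overlapped. Heated and control levels were 2.44 and 3.81 CPM in A2, 3.03 and 2.67 CPM in A4, and 2.69 and 0.812 CPM in A5.

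OFAVBQ_DN20869_c0_g1_i1 (D 1.71) varied within both arms. It had 0 to 16.9 CPM (median 3.29) in inshore heated and 0 to 17.7 CPM (median 0.311) in inshore control libraries of 31 days. In 3 of the 9 heated and 3 of the 9 control libraries it was at 0, so the arms overlapped and edgeR gave an adjusted p of 0.629. OFAVBQ_DN225282_c3_g3_i6 (D 1.42) had a heated median of 18.8 CPM (0.313 to 42.9) against a control median of 6.41 (0 to 14.3). It stood at 42.9 and 32.4 CPM in B2 and B3 heated, at 18.8 to 19.7 CPM in the In3 libraries D3, D4 and D5, and at 3.62 CPM or less in the other heated libraries. Without B2 and B3 heated its D was -0.68, from heated A5 (In1) at 3.62 CPM against the control B3 (In2) at 6.41 CPM. Within In3, heated was above control, at 18.8 against 12.1 CPM in D4 and 19.7 against 14.3 CPM in D5.

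The 3 libraries that stood apart bore on a minority of the members. For 8 of the 76 (10.5%) B2 heated, B3 heated and C4 control of 31 days were the highest 3 libraries, against 3.81% of the 26353 features. OFAVBQ_DN223114_c0_g3_i1 had 826, 1545 and 3421 CPM in them, 2.36 to 10.2 CPM in the other 7 inshore heated libraries, and 2.02 to 11.6 CPM in the 9 inshore controls. OFAVBQ_DN202584_c1_g1_i4 had 54.5, 140 and 32.7 CPM in them and OFAVBQ_DN205027_c1_g1_i2 had 68.5, 55.0 and 68.1 CPM. C4 is a control, while B2 and B3 were heated. The offshore edgeR change of 31 days was below 0 for all 8 members with these libraries on top, while the offshore D, from group medians, was above 0 for 5. When B2 and B3 heated were left out and their controls kept, 68 of the 76 still had a D above 0 at 31 days. Of the 76, 52 still reached 0.8, and 8 were below 0, down to -1.54. In2 was then in the control arm only. The medians of both arms could fall in different genotypes, so a D below 0 need not be a fall under heat within a genotype. Of the 8 with those 3 libraries on top, 2 still reached 0.8.

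OFAVBQ_DN207907_c0_g1_i22 was high in other single libraries. It had 1748 CPM in the inshore heated library B3 of 31 days and 0 to 23.2 CPM in the other 8, against 769 CPM in the control D5 and 0 to 28.6 CPM in the other 8 controls. At 5 days it had 1959 and 617 CPM in the heated libraries BLY6 and BLY5 and 3886, 2977 and 609 CPM in the controls D6, B4 and BLY6. Offshore it had 7.16 to 17.3 CPM in heated libraries of 31 days, against 4152 CPM in the control C4 and 8.36 and 16.2 CPM in the other 2. High libraries stood in both arms and at both times, and its inshore edgeR change at 31 days was -1.15 on the log2 scale, the only member with a value below 0.

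Some members were present by genotype. A median in In3 libraries of at least 4 times that in other inshore libraries was found for 11 of the 76, against 2.79% of the 26353 features, and the same for In1 in 6, against 2.46%. OFAVBQ_DN217488_c6_g3_i1, named after its values were seen, had 29.2 to 39.7 CPM in the 3 heated In3 libraries of 31 days and 28.9 to 33.5 CPM in the 3 control ones. It had 15.9 and 7.43 CPM in B2 and B3 heated against 9.22 and 2.42 CPM in B2 and B3 control, and at most 0.178 CPM in the In1 and In4 libraries of either arm at that time. With 9 libraries ordered by genotype, the group medians were the levels of B3 alone, 7.43 CPM in heated and 2.42 CPM in control fragments, which gave a D of 1.30, while the arms overlapped in In3. Without B2 and B3 heated its D was -1.54, from heated A5 (In1) at 0.178 CPM against the control B3 (In2) at 2.42 CPM, which are different genotypes. OFAVBQ_DN208068_c3_g1_i5, also named after its values were seen, had 7.07 to 8.84 CPM in heated and 10.5 to 12.5 CPM in control In1 libraries of 31 days, and 0 in all In3 libraries. Its D of 0.99 came from a heated median of 0.988 CPM, again the level of B3, against a control median of 0, and in In1, where it was most abundant, heated libraries were the lower ones.

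Offshore at 31 days no member was called by edgeR, and the members' changes lay on both sides of 0. By edgeR, 0 of 76 passed an adjusted p of 0.05, where 0.0312% of the 35219 tested features did (0.00852% as higher); at an unadjusted p under 0.05 there were 9 of 76, against 9.89% of all, 7 higher and 2 lower. DESeq2 called 1 as higher, where 0.361% of all features were. The log2 change was above 0 for 29 of the 76, with a median of -0.16, against 50.6% and a median of 0.01 over all tested features. Group medians of L gave another sign: D was above 0 for 43 of 76 with a median of 0.10, against 59.2% and a median of 0.08 over the 26353 features. The sign of the edgeR median changed with the C4 pair. Without the C4 control the edgeR median was 0.11 and without the C4 heated library 0.13. Without B2 heated, B3 heated and the C4 control together it was 0.12, with 40 of 76 above 0. Each fit left a C4 library without its partner, which then gave no heat value. These 3 medians thus rest on the tags C2 and C5. With members of 3 counts or fewer in 1 offshore group set at a bound, and without the 4 that had so few in both, the median over 72 members was -0.21.

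Members with larger offshore gaps at 31 days were counted in 3 ways. A D of 0.8 or more at 31 days was reached by 13 of 76 (17.1%), against 5.71% of the 26353 features, and all 3 heated libraries lay above all 3 controls for 11 of 76, against 6.79%. All 3 below all 3 was found for 1, OFAVBQ_DN225329_c0_g1_i2, against 2.53%. Heated exceeded control in all 3 tag pairs for 18 of 76 (23.7%), against 19.95% of the 26353. It was below control in all 3 for 5 (6.58%), against 7.80%. The shares over all features carry the shift of the C4 pair. Heated was higher for 76.3% of the 26353 in C4, 50.3% in C2 and 43.3% in C5. For the members it was higher for 51.3%, 67.1% and 39.5% in the same tags. The count by D covers rises only. A D of -0.8 or below was not counted, and members had it too, such as OFAVBQ_DN211440_c0_g2_i2 (-1.06) and OFAVBQ_DN225329_c0_g1_i2 (-0.83). Whether the members spread wider to both sides was not tested.

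The smallest p offshore at 31 days belonged to OFAVBQ_DN217069_c0_g1_i1. It had 42.3, 28.7 and 21.5 CPM in the heated libraries C2, C4 and C5, against 12.2, 1.91 and 12 CPM in the controls C2, C4 and C5. Each heated library was above each control, and the log2 change was 1.84 ± 0.41 (SE) with an edgeR adjusted p of 0.0853. DESeq2 called it, with an adjusted p of 0.00261, and its edgeR change was 1.36 with an adjusted p of 0.766 without the C4 control; over all alternatives the adjusted p ran from 0.00261 to 0.766. Inshore it had 6.42 to 42.1 CPM (median 27.5) in heated and 8.86 to 19.3 CPM (median 12.6) in control libraries of 31 days, and B2 and B3 were the lowest heated ones.

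A further 3 had the next smallest p among members higher offshore at 31 days, and none passed. OFAVBQ_DN202554_c6_g1_i10 had 3.72, 4.59 and 4.33 CPM in the heated libraries C2, C4 and C5 and 1.64, 0.595 and 1.23 CPM in the controls C2, C4 and C5 (log2 change 1.71 ± 0.47, edgeR adjusted p 0.212). OFAVBQ_DN199205_c0_g1_i1 had 5.51, 13.3 and 7.94 CPM in heated and 3.20, 0.954 and 1.27 CPM in control libraries (2.07 ± 0.65, edgeR adjusted p 0.294). OFAVBQ_DN205365_c0_g3_i1 had 4.70, 2.20 and 6.78 CPM in heated and 0.934, 0.237 and 1.45 CPM in control libraries (2.34 ± 0.74, edgeR adjusted p 0.296). In each the arms did not overlap offshore at 31 days. OFAVBQ_DN199205_c0_g1_i1 did not overlap offshore at 5 days either, at 4.54 to 12.4 CPM in heated and 2.39 to 2.89 CPM in control libraries, a log2 change of 1.63 ± 0.63 with an edgeR adjusted p of 0.182. Nor did OFAVBQ_DN202554_c6_g1_i10 at 5 days, at 2.79 to 4.80 CPM in heated and 1.52 to 2.78 CPM in control libraries. Its log2 change was 0.78 ± 0.38 with an edgeR adjusted p of 0.319. OFAVBQ_DN210955_c8_g2_i1, named after its values were seen, was the member called when B2 heated, B3 heated and the C4 control were left out, at a log2 change of 2.95 ± 0.46 and an edgeR adjusted p of 0.0418. It had 7.60, 12.3 and 21.2 CPM in the heated libraries C2, C4 and C5 and 1.60, 17.4 and 2.0 CPM in the controls C2, C4 and C5. That change rests on the tags C2 and C5, since C4 heated then has no partner.

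**Figure D4:**
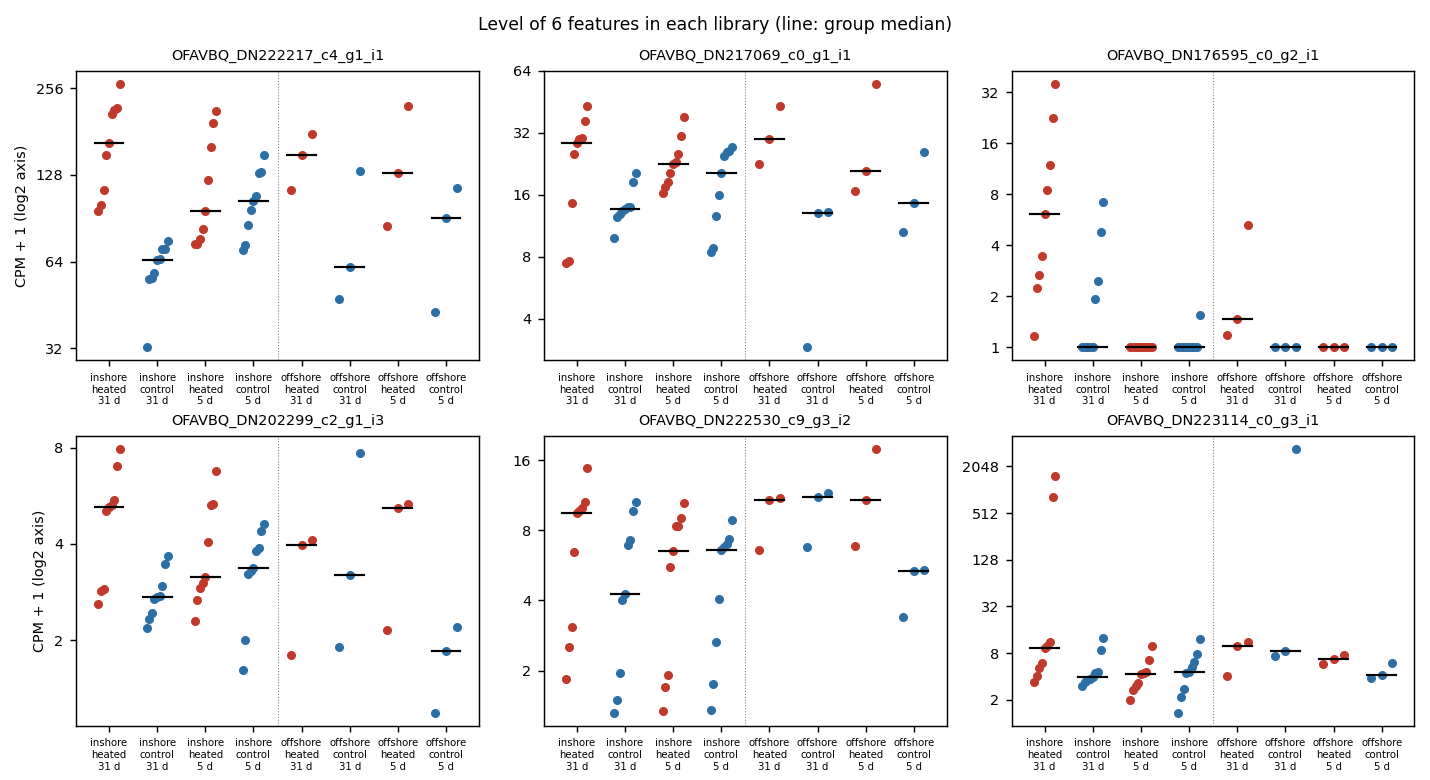
CPM + 1 on a log2 axis for 6 features in each library (points; heated red, control blue) with group medians (lines). OFAVBQ_DN222217_c4_g1_i1 does not overlap between inshore arms at 31 days, OFAVBQ_DN176595_c0_g2_i1 is near 0 CPM in all groups of 5 days, and OFAVBQ_DN223114_c0_g3_i1 has 3 libraries of 31 days at 826 to 3421 CPM.

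Among members with lower offshore values at 31 days, C4 control carried most of the large changes. OFAVBQ_DN217002_c1_g2_i2 had 0.317, 0 and 0 CPM in the heated libraries C2, C4 and C5, against 0, 143 and 0.727 CPM in the controls, or 2 counts against 754, nearly all in 1 library. OFAVBQ_DN205027_c1_g1_i2 had 1.58, 0.525 and 0.478 CPM in heated and 1.2, 68.1 and 0.909 CPM in control libraries, and OFAVBQ_DN202584_c1_g1_i4 had 1.28, 2.67 and 0 CPM in heated and 0.20, 32.7 and 0.367 CPM in control libraries. These 3 had edgeR adjusted p-values of 0.459, 0.612 and 0.622. Others did not rest on C4. OFAVBQ_DN225329_c0_g1_i2 had 6.97, 11.6 and 5.25 CPM in heated and 15.0, 13.2 and 11.8 CPM in control libraries, with no overlap (log2 change -1.05 ± 0.55, edgeR adjusted p 0.550). OFAVBQ_DN206000_c0_g1_i1 had 2.06, 5.67 and 3.06 CPM in heated and 4.23, 8.30 and 6.09 CPM in control libraries, lower in each of 3 tags (-1.10 ± 0.48, edgeR adjusted p 0.467).

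A further pair of members had the highest fitted changes, beside OFAVBQ_DN176595_c0_g2_i1, offshore at 31 days over controls with no counts. OFAVBQ_DN224017_c3_g2_i5 had 12.7, 0.350 and 0 CPM in the heated libraries C2, C4 and C5 and 0 in the 3 controls, and OFAVBQ_DN197178_c2_g2_i2 had 0.317, 0.350 and 0.637 CPM in heated and 0 in control libraries. The first had 82.2 counts against 0, at least 23.6-fold higher, and the second 8 counts against 0, at least 2.29-fold higher, each with 3 counts over the group in place of 0. Nearly all counts of the first were in C2 heated.

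Offshore at 5 days 4 members rose under heat, and most of the others had values above 0. By edgeR, 4 of the 74 tested members rose, where 1.18% of the 34540 tested features did, and 0 fell, where 1.37% did. The log2 change was above 0 for 61 of 74 with a median of 0.50, against 52.8% and a median of 0.03 over all tested features. D was 0.8 or more for 18 of 76 (23.7%), against 4.91% of the 26353 features, and above 0 for 56 (73.7%), against 49.6%. The median member changed by 0.42, 0.14 and 0.41 in L in the tags C1, C2 and C5, against 0.01, -0.11 and 0.09 over the 26353. Heated exceeded control in all 3 tags for 22 of 76 (28.9%), against 17.5%, and was below it in all 3 for 2 (2.63%), against 17.9%. The inshore D at 5 days was held within 0.2 of 0 by the rule, so the inshore and offshore values of 5 days are not compared.

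The 4 members called offshore at 5 days each had every tag higher under heat. OFAVBQ_DN202299_c2_g1_i3 had 4.20, 4.32 and 1.15 CPM in the heated libraries C1, C2 and C5, against 1.2, 0.851 and 0.190 CPM in the controls C1, C2 and C5. The log2 change was 2.15 ± 0.37 (SE), higher in 3 of 3 tags, with an edgeR adjusted p of 0.0032. At 31 days it had 2.97, 3.11 and 0.796 CPM in heated and 2.20, 6.68 and 0.909 CPM in control libraries of C2, C4 and C5, so the arms overlapped and the log2 change was -0.62 ± 0.58. OFAVBQ_DN222530_c9_g3_i2 had 5.84, 9.79 and 16.9 CPM in heated and 2.39, 4.43 and 4.37 CPM in control libraries of C1, C2 and C5 at 5 days, a log2 change of 1.48 ± 0.33 with an edgeR adjusted p of 0.0205. At 31 days its levels of 9.82, 5.6 and 10.03 CPM in heated and 5.80, 10.1 and 10.5 CPM in control libraries of C2, C4 and C5 overlapped.

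The other 2 had fewer counts. OFAVBQ_DN209348_c0_g2_i3 had 1.95, 3.11 and 3.57 CPM in heated and 0.598, 0.713 and 0.570 CPM in control libraries of C1, C2 and C5 at 5 days (log2 change 2.17 ± 0.58, edgeR adjusted p 0.0488). It was higher in every offshore tag at 31 days too, at 3.91, 9.63 and 2.16 CPM in heated and 2.29, 1.15 and 1.09 CPM in control libraries of C2, C4 and C5, where the log2 change was 1.41 ± 0.62 and the edgeR adjusted p 0.472. OFAVBQ_DN199939_c3_g1_i1, named after its values were seen, had 3.45, 4.82 and 3.73 CPM in heated and 0.797, 1.19 and 0.570 CPM in control libraries at 5 days (2.23 ± 0.49, edgeR adjusted p 0.0185). Its change at 31 days was -0.03 ± 0.50. Inshore at 31 days it had 3.03 to 8.89 CPM (median 3.97) in heated and 0.846 to 4.54 CPM (median 1.5) in control libraries.

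These calls rested on 3 libraries in each arm, and leaving out 1 library takes its tag's other library out of the heat effect too. With 1 offshore library left out in turn, the number of members called at 5 days was 1 without C1 in either arm, 0 without C2 in either arm and 3 without C5 in either arm, and it was 0 with no genotype term. The member called without C1 was OFAVBQ_DN202299_c2_g1_i3. Without C5 they were OFAVBQ_DN202299_c2_g1_i3, OFAVBQ_DN208720_c1_g2_i2 and OFAVBQ_DN222179_c6_g3_i1, and only the first was among the 4 called in the full fit. OFAVBQ_DN208720_c1_g2_i2 is named here after its values were seen. Over 11 alternatives OFAVBQ_DN202299_c2_g1_i3 was called in 8 (edgeR or DESeq2 adjusted p from 0.00294 to 0.212). OFAVBQ_DN222530_c9_g3_i2 and OFAVBQ_DN199939_c3_g1_i1 were called in 4 each and OFAVBQ_DN209348_c0_g2_i3 in 1. DESeq2 gave the last of these no adjusted p, which was counted as not called. The log2 changes stayed above 1.25 in all 4. OFAVBQ_DN222179_c6_g3_i1 missed the threshold in the edgeR fit (log2 change 1.29 ± 0.37, adjusted p 0.0624) and was called by DESeq2 with an adjusted p of 0.00715, where DESeq2 called 5 of 74 members and 2.14% of all tested features as higher. It had 75.5, 162 and 227 CPM in heated and 38.6, 21.3 and 206 CPM in control libraries of C1, C2 and C5 at 5 days. At 31 days it had 110, 1.34 and 132 CPM in heated and 52.0, 0.369 and 117 CPM in control libraries of C2, C4 and C5, higher in each tag, with both C4 libraries near 0.

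**Figure D5:**
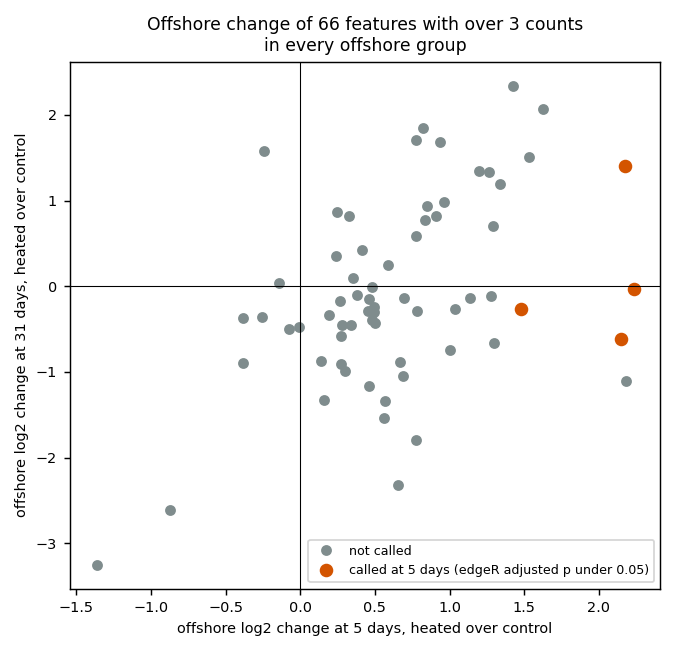
Offshore log2 change, heated over control, at 5 days (horizontal axis) and at 31 days (vertical axis) for the 66 features with more than 3 counts in every offshore group; the 4 features called at 5 days are in orange. Of the 66, 57 lie right of 0 at 5 days and 24 lie above 0 at 31 days, and the values of 31 days run from -3.25 to 2.34.

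The offshore heat changes of both times were compared in 1 model of all 48 libraries. For 54 of 76 members the change was smaller at 31 than at 5 days, with a median difference of -0.58 on the log2 scale, against a median of 0.00 over all 38483 tested features. Without B2 heated, B3 heated and the C4 control of 31 days it was smaller for 51, with a median difference of -0.35. The offshore change of 31 days then rested on the tags C2 and C5. By group medians, the offshore D was lower at 31 than at 5 days for 43 of 76 and higher for 30, with a median difference of -0.15. By edgeR, 0 of 76 passed an adjusted p of 0.05, and 0% of all features did; 7 of 76 were under an unadjusted p of 0.05, all with a smaller change at 31 days, against 7.15% of all features, and DESeq2 called 0, against 0.0338% of all. A p that misses the threshold does not show that the changes were alike at both times. The smallest p-values were those of OFAVBQ_DN202299_c2_g1_i3 (-2.74 ± 0.70 SE) and OFAVBQ_DN206000_c0_g1_i1 (-3.25 ± 0.82), each with an edgeR adjusted p of 0.434. For OFAVBQ_DN206000_c0_g1_i1 the offshore libraries of 5 days had 1.65, 3.05 and 6.76 CPM in heated and 0.915, 0.905 and 0.459 CPM in control fragments of C1, C2 and C5, so it was higher in all 3 tags at 5 days and lower in all 3 at 31 days. In the other direction OFAVBQ_DN217069_c0_g1_i1 (1.04 ± 0.70, edgeR adjusted p 0.752) and OFAVBQ_DN202554_c6_g1_i10 (0.96 ± 0.60, edgeR adjusted p 0.739) had larger changes at 31 than at 5 days.

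Between times, members of the offshore arms went both ways. In offshore heated fragments the median member was higher at 31 than at 5 days by 0.004 in L, with 39 of 76 higher, and in offshore control fragments by 0.15, with 43 of 76 higher. Over the 26353 features the medians were 0.05 in heated and -0.04 in control fragments. The median L over the members in a library was 2.01, 2.61 and 2.71 in offshore heated and 2.03, 2.21 and 2.38 in offshore control libraries of 31 days, which overlapped. At 5 days it was 2.18, 2.37 and 2.46 in heated and 1.69, 1.75 and 2.11 in control libraries, with no overlap.

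For scale, the 91 features with an inshore D of 0.8 or more at both times were followed offshore in the same way. Their median offshore D was 0.93 at 31 days and 1.37 at 5 days, and 53 of 91 (58.2%) reached 0.8 at 31 days and 68 (74.7%) at 5 days. The 76 members had medians of 0.10 at 31 days and 0.36 at 5 days, and shares of 17.1% and 23.7%. Both sets were chosen on inshore values, and no test was made between them. A D of 0.8 or more offshore at both times was found for 9 of the 76, among them OFAVBQ_DN199205_c0_g1_i1, OFAVBQ_DN205365_c0_g3_i1, OFAVBQ_DN209348_c0_g2_i3 and OFAVBQ_DN222179_c6_g3_i1.

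Single libraries held many of the members' highest values. The highest of the 48 libraries was an inshore heated one of 31 days for 31 of 76 members (40.8%), against 20.5% of the 26353 features, which the rule on that group favours. Of these 31, B3 held 13 and D3 held 7. The offshore control group of 31 days held the highest value of 13 members (17.1%), against 9.62%, and 10 of the 13 were in C4. The inshore controls of 5 days held 14 (18.4%), against 16.6%, and the offshore controls of 5 days none, against 6.33%.

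Members were also set beside the other features of their assembly component, those with the same cluster and component number. The 76 members fell in 75 components of the assembly, and 30 were the only feature of their component in the table (39.5%, against 47.4% of the 26353 features). For a further 30 the other features of the component summed to 2 CPM or more. Their summed inshore D at 31 days had a median of 0.33; it was 0.8 or more for 4 of the 30, between 0.2 and 0.8 for 14, within 0.2 of 0 for 9 and -0.2 or below for 3. Summing a member with the rest of its component gave a median D of 0.58, and 9 of the 30 components reached 0.8. OFAVBQ_DN222217_c4_g1_i1 and OFAVBQ_DN222217_c4_g2_i1 were members of the same component, with D of 1.36 and 0.91 at 31 days. The second, named after its values were seen, had 6.25, 2.76 and 2.55 CPM in heated and 2.34, 0.805 and 0.909 CPM in control offshore libraries of C2, C4 and C5 at 31 days, with no overlap, and an edgeR adjusted p of 0.547. OFAVBQ_DN222217_c4_g1_i1 had 150, 176 and 113 CPM in heated and 46.5, 132 and 60.1 CPM in control libraries, higher in each tag (log2 change 0.78 ± 0.37, edgeR adjusted p 0.505). In OFAVBQ_DN225282_c3_g3_i6 the other feature of the component had a D of -0.37 and the component as a whole 0.18, and in OFAVBQ_DN197178_c2_g2_i2 the other feature, at a mean of 159 CPM, had a D of -0.46.

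The inshore arms of 31 days overlapped in OFAVBQ_DN211343_c0_g1_i2 and OFAVBQ_DN222179_c6_g3_i1, which were among the members with the highest mean CPM. OFAVBQ_DN211343_c0_g1_i2 had 54.9 to 247 CPM (median 94.2) in inshore heated and 43.6 to 55.6 CPM (median 49.1) in inshore control libraries of 31 days, so the controls were close together and 1 heated library lay within their range. B2 and B3 heated, at 181 and 247 CPM, were the highest of the 9, and without them its D fell to 0.62, against 0.92 with them. At 5 days it had 49.0 to 147 CPM (median 76.8) in heated and 56.7 to 141 CPM (median 82.4) in control libraries. Offshore at 31 days it had 70.6, 69.0 and 57.1 CPM in heated and 47.0, 254 and 54.7 CPM in control libraries of C2, C4 and C5, so that heated was higher in C2 and C5 and lower in C4 (log2 change -0.58 ± 0.59, edgeR adjusted p 0.782). OFAVBQ_DN222179_c6_g3_i1 had 82.1 to 422 CPM (median 128) in inshore heated and 37.4 to 140 CPM (median 70.6) in inshore control libraries of 31 days, with B3 at 422 CPM the highest heated library and A2 the next at 162 CPM.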

How the data were processed

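Stranded mRNA libraries were made from column-purified RNA of coral tissue, per the labels' protocols. The authors deposited estimated counts of assembled features, in a coral table and a second table that its name marks as symbiont. The authors' tables are named for kallisto, while the submitters' processing notes name Trimmomatic 0.36 and RSEM with no role; which tool made the estimated counts, and on which reference, is not given in the sources used here. The share of values that were not whole was 23.5% in the coral table and 3.04% in the second, and they were rounded for tests. All columns but 1 were matched to samples by name; the coral one headed BL6 went to the remaining 5-day control sample, BLY6. At the depth of these libraries (4726663 coral counts or more), features of a few CPM rest on few counts, and counting error is not the only error of an estimated count.

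Members were found as described above. Members, lists and tests were chosen with earlier results of these data known. Heat effects were fitted with edgeR 4.0.16 under R 4.3.3 by its quasi-likelihood test, after filterByExpr by group and TMM scaling, and p-values were adjusted by Benjamini-Hochberg over all tested features (threshold 0.05). Each time was fitted on its 24 libraries, with terms for genotype labels and for heat in either habitat, and all 48 entered the model of offshore differences between times. The edgeR fit of the offshore change at 31 days was run on simulated counts with known changes. That run checked the program, and the recovery of changes in members of few counts is not given. Alternatives were DESeq2 1.42.0, RLE size factors, no filter, the tag as a replicate block, no genotype term, other settings of the rule and leaving out libraries. The 2 libraries of a tag correlated, each taken as its deviation from its group mean. The correlation was 0.49 to 0.77 over 12 pairs of 5 days and 0.36 to 0.75 over 11 pairs of 31 days. Libraries of a tag also share a genotype label, so this does not show pairing by tag beyond genotype. Pairs within a group all differed by more than sampling noise (chi-square per degree of freedom of 3.29 or more over 156 pairs). Features were named by rule: the 6 largest inshore D at 31 days, the 6 highest mean CPM, the 4 smallest p in each direction offshore at 31 days, the 3 smallest in each direction for the difference of times, the 3 most extreme offshore changes of 31 days in each direction, and the 2 nearest each threshold on either side. Any feature named outside it is marked where it stands. Analyses used Python 3.11.15, NumPy 2.4.6, pandas 2.3.3 and matplotlib 3.10.9.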

Additional observations from a re-analysis of the deposited data

Results flagged for a closer look

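For the 28 members named by rule, 112 groups of 9 inshore libraries were searched for a library that stood apart from the rest of its group. In 8 groups the gap to the nearest other was beyond Dixon's 95% critical value on log2(CPM + 1). That value flags about 1 in 20 groups of normally distributed values. These groups mix genotypes and some hold many zeros, so the rate need not hold here. Groups with all values equal, such as the inshore heated libraries of 5 days for OFAVBQ_DN176595_c0_g2_i1, are among the 112 but could not be flagged. At 31 days, among heated libraries, B3 stood apart for OFAVBQ_DN207907_c0_g1_i22 at 1748 CPM (group median 8.30) and for OFAVBQ_DN222179_c6_g3_i1 at 422 CPM (group median 128), and D3 stood apart for OFAVBQ_DN225342_c7_g3_i1 at 18.0 CPM (group median 3.48). Among control libraries of 31 days, A2 stood apart for OFAVBQ_DN217002_c1_g2_i2 at 10.5 CPM (group median 0.467), and BLY5 was low for OFAVBQ_DN222217_c4_g1_i1 at 31.2 CPM (group median 63.9). Among control libraries of 5 days, A3 stood apart for OFAVBQ_DN176595_c0_g2_i1 at 0.558 CPM (group median 0), B4 for OFAVBQ_DN211440_c0_g2_i2 at 5.47 CPM (group median 0), and A6 for OFAVBQ_DN217002_c1_g2_i2 at 1.40 CPM (group median 0.167).

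OFAVBQ_DN206000_c0_g1_i1 pointed in opposite directions between habitats at 31 days. Heated was below control in all 3 offshore tags, with a median change of -0.77 in log2(CPM + 1), and above control in all 8 inshore tags with a library in both arms, with a median change of 0.90. This difference between habitats was not tested, and the inshore direction was fixed by the choice of members.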

How the results depend on the processing

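Counts of members called offshore at 31 days were 0 in the edgeR fit and under RLE size factors, no filter, the replicate block, no genotype term and B2 and B3 as separate genotypes, and 1 with DESeq2 and 1 without B2 heated, B3 heated and the C4 control; without each offshore replicate in turn they were 0. Counts offshore at 5 days were 4 in the edgeR fit, 3 to 5 under the tool, scaling, filter and block alternatives, 0 with no genotype term, and 0 to 3 without each offshore replicate. The members behind these counts were not always the same. The difference between times called 0 members under all alternatives run. An offshore library left out takes its tag out of the heat effect, since its partner then gives no heat value. The inshore count of 15 was 29 with DESeq2, 5 with the replicate block, 6 with no genotype term and 0 without In3; the block changed no other call of a result by more than 1.5 times, and took OFAVBQ_DN209348_c0_g2_i3 at 5 days to an adjusted p of 0.0535. The members' median offshore change at 31 days, -0.16, was 0.12 without B2 heated, B3 heated and the C4 control, 0.10 from group medians of L, 0.22 from those without the C4 control, and -0.24 to 0.13 without each offshore replicate. The rule kept 76 features, and 41 with a pseudocount of 2, 38 with a mean of 5 CPM, 139 with group means of L, 124 without B2 and B3 heated, and 70 to 138 without each inshore replicate (122, 126 and 138 without the heated libraries A2, A4 and BLY5 of 31 days). The causes were not tested. Low counts and 3 offshore libraries per arm limit what can be shown for members of a few CPM.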
